A study of Homo sapiens with 12 samples.

Results

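The replication-dependent histone genes are the 63 genes of the deposited table, of 17303 in all, whose symbols name the clustered H1, H2A, H2B, H3 and H4 genes (H1-1 to H1-6, and the numbered H2AC, H2BC, H3C and H4C genes). They comprised 6 H1, 14 H2A, 17 H2B, 13 H3 and 13 H4 genes, 53 of them on chromosome 6 and 10 on chromosome 1. They were selected by name and not by any measured value, although the choice was made with earlier results of these data known. Enough counts for a test, by edgeR's filter on low expression, were present for 26 of them, among 12868 genes tested in all, and 37 fell below the filter.

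H2A, H2B, H3 and H4 are the core histones around which DNA is wound in the nucleosome, and H1 is the linker histone that binds where DNA enters and leaves it. The clustered genes are switched on in S phase, when newly made DNA needs new nucleosomes. Their mRNAs normally end in a short stem-loop bound by SLBP instead of a poly(A) tail, although many of these genes also have longer, polyadenylated transcripts.

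SNU638 is an established line of human gastric cancer cells, which was made into 4 stable lines by lentiviral infection and puromycin selection. The sh-control line carried a control hairpin and is labelled wild type, and the sh-SKA2-1, sh-SKA2-2 and sh-SKA2-3 lines carried 1 of 3 hairpins against SKA2 each and are labelled SKA2 knockdown. They are called the control, hairpin 1, hairpin 2 and hairpin 3 here, with 3 libraries each and 12 in all. Nothing in the labels tells if libraries of the same line were grown as separate cultures. The p-values therefore cover the spread among libraries only, and that spread may be technical. Each hairpin is represented by 1 line, so hairpin and line cannot be told apart. RNA was selected on its poly(A) tail before sequencing, which enriches polyadenylated histone transcripts over mRNA that ends in the stem-loop. How much of the latter was carried over was not measured. Of 7 RNAs without a poly(A) tail, such as RN7SK, 0 were listed in the table, so they give no measure of such carry-over.

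The libraries held 1.47e+07 to 1.67e+07 expected counts, of which the 63 histone genes took between 1144 and 3923. SKA2, a subunit of the complex that couples kinetochores to spindle microtubules, stood at 126, 119 and 117 CPM in the control libraries and between 22.3 and 28 CPM in the 9 knockdown libraries (log2 fold change -2.33, -2.25 and -2.18 with hairpins 1, 2 and 3, SE 0.08 each). The hairpins did not pass the test for a difference in SKA2 from each other (adjusted p 0.243 to 0.473, edgeR). Of the markers of the cell type, all 7 gastric epithelial genes passed the filter, and their summed level ran from 2630 to 3730 CPM in the control libraries. It lay between 2230 and 2310 CPM for hairpin 1, between 1050 and 1090 for hairpin 2, and between 2030 and 2740 for hairpin 3. Of 5 immune markers 1 passed the filter (CD68), of 5 fibroblast markers 1 (COL1A1) and of 4 endothelial markers 0, and summed endothelial markers were at most 0.444 CPM in any library. The part of these marker levels in the histone results was not tested. CPM is the count divided by the TMM-scaled library total and multiplied by 1e+06. The slope of log2 count on transcript length in each library, centred over the 12, lay between -0.317 and -0.055 in the control libraries. It lay between 0.082 and 0.107 for hairpin 1, between 0.149 and 0.201 for hairpin 2, and between -0.169 and 0.091 for hairpin 3. The median effective length was 238 bases over the tested histone genes and 2879 over all tested genes. Control library 1 and hairpin 3 library 1 differed most in this slope from the other libraries of their lines. In chi-square per degree of freedom over genes, they differed from these by 25.3 to 52.1, and all other pairs within a line by 1.69 to 6.74.

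The stem-loop marks the place where the histone-specific 3' end would be cut, and its position shows how far the annotated transcripts run past it. In the GENCODE v29 transcripts (GRCh38) the 16-base stem-loop was found for 27 of the 63 genes, in 6 forms, in 5 H2A, 10 H2B, 5 H3 and 7 H4 genes. A gene without a match has no such letters in its annotated transcripts, several of which end near the stop codon. These 28 bases, shown with the stem-loop in capitals and with 6 bases before and after it, cover 4 forms carried by genes that the results turn on.
H2AC6 (chr6:26124663-26124690, plus strand): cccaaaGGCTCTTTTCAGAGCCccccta
H2BC5 (chr6:26158581-26158608, plus strand): cccaaaGGCTCTTTTAAGAGCCacgcat
H3C6 (chr6:26225590-26225617, plus strand): tccaaaGGCTCTTCTCAGAGCCaaccac
H4C15 (chr1:149860763-149860790, minus strand): cccaaaGGCCCTTTTTAGGGCCgaccac
H3C6 had a form that no other of these genes carried, and the form of H2AC6 was shared by 14 genes. The longest annotated transcript with the stem-loop ran 1862 bases past it in H3C6, 1314 in H4C15, 1128 in H2AC6, 1729 in H2BC21 and 39 in H2BC5. For H2BC5 that transcript has 496 bases, and a longer annotated transcript of 789 bases has no match. A match to the form describes the letters in the annotation and not which 3' end was used in these cells.

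The promoters are shown because histone genes of 1 family are known to share control elements, and because pairs of genes lie head to head over a common gap. RefSeq promoters (GRCh38.p14, 250 bases before to 50 after the start) were found for 58 of the 63 genes. The windows below lie before the start of the gene, with the TATA box (TATAAA), the CCAAT box (CCAAT), the octamer core (TTTGCAT) and the H1 box (AAACACA) in capitals on either strand. The window of H2AC6 is the whole 245-bp gap that it shares with H2BC4. The genes were chosen after their values were seen.
H2AC6 (chr6:26123927-26124171, plus strand): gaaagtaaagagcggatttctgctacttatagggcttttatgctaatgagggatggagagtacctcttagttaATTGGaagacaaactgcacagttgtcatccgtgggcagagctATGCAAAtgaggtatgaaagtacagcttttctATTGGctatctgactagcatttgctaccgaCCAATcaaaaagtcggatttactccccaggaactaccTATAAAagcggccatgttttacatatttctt
H2BC12 (chr6:27146859-27146978, minus strand): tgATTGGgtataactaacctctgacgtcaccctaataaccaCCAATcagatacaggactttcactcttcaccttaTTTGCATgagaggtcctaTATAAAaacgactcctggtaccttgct
H1-2 (chr6:26056471-26056590, minus strand): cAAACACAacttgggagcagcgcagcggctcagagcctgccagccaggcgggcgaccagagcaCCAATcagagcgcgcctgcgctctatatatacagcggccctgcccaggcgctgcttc
H3C6 (chr6:26224058-26224177, plus strand): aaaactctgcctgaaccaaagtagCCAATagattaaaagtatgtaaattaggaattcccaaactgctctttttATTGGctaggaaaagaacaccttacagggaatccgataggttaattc
Searched on both strands, the CCAAT box was found in 50 of 58 promoters of the histone genes (86.2%) and in 34.6% of the 35116 promoters in the table. It was found in all H1, H2A, H2B and H3 promoters and in 3 of 11 H4 promoters. The TATA box was found in 65.5% of the histone promoters against 11.5% of all, and the octamer core in 43.1% against 4.5%. The octamer core was found in 14 of 17 H2B and 10 of 13 H2A promoters, in 1 of 11 H3 promoters and in 0 H1 and 0 H4 promoters. Many H2A and H2B genes lie head to head over gaps of 193 to 247 bp, within the 250 bases searched. The same match may therefore be counted for both genes of a pair. The H1 box was found in 6 of 6 H1 promoters and in 5.6% of all promoters. These matches describe letters and show no binding, and they are not tests.

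The summed histone level was highest with hairpin 2 and stood above the control with hairpin 3. The 63 genes together had 72.4, 79.7 and 85.6 CPM in the control libraries, 85.2, 84.1 and 80.4 with hairpin 1, 251, 252 and 248 with hairpin 2, and 112, 129 and 133 with hairpin 3. All hairpin 2 and hairpin 3 libraries lay above all control libraries, and the hairpin 1 libraries lay among them, although on TPM all 3 hairpin 1 libraries (386, 407 and 391) lay above the control (322, 280 and 277). The mean was 1.05, 3.16 and 1.57 times that of the control with hairpins 1, 2 and 3. On the TPM scale, which divides by length, the ratios were 1.35, 4.14 and 1.68. The median over all tested genes also rose on log2(TPM + 1), by 0.29, 0.33 and 0.12 with hairpins 1, 2 and 3. Part of each TPM ratio is therefore common to genes at large, and the same holds for the values on log2(TPM + 1) below. In these bulk libraries, more cells of a kind and more RNA per cell cannot be told apart.

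**Figure D1:**
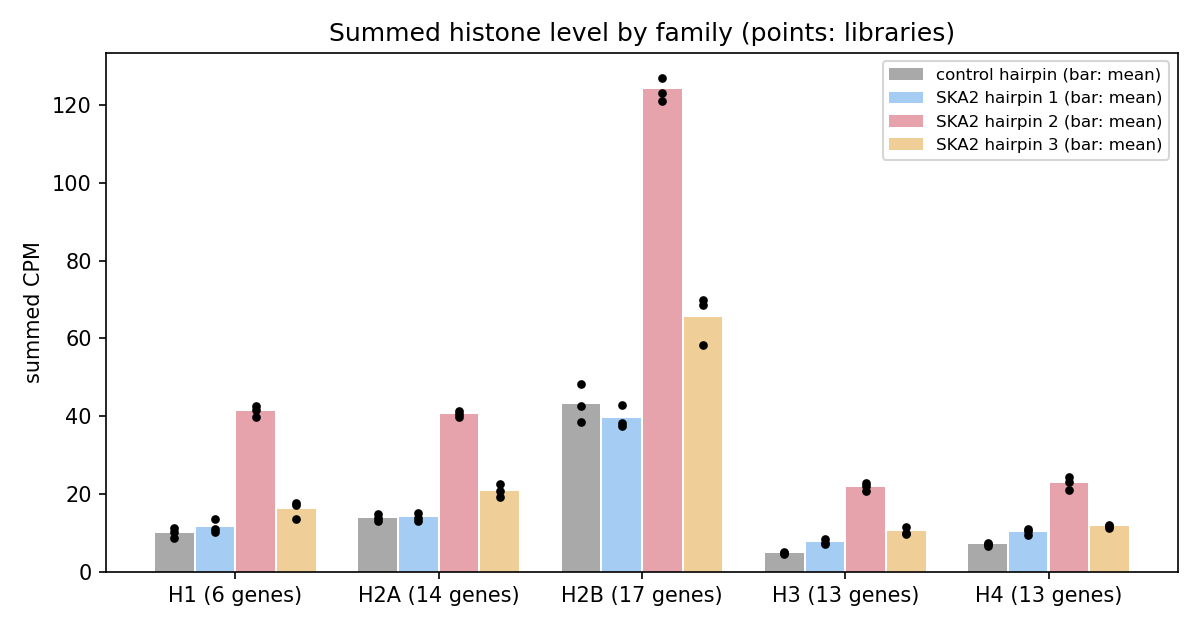
Summed CPM of each histone family (bars: mean over 3 libraries, points: libraries) for the 4 lines. The hairpin 2 bars stand at 21.9 (H3) to 124 CPM (H2B) and lie above those of the other 3 lines in each family.

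Every family was highest with hairpin 2. The summed H1 level was 1.15, 4.08 and 1.59 times the control with hairpins 1, 2 and 3. The summed H2A level was 1.01, 2.92 and 1.5 times the control, and the summed H3 level was 1.6, 4.56 and 2.17 times in CPM and 1.28, 2.99 and 1.55 times in TPM. The summed H4 level was 1.43, 3.19 and 1.63 times the control. For H2B, which held 50.6% of all histone counts, the ratios were 0.915, 2.86 and 1.52 in CPM. The hairpin 1 ratio for H2B lay above 1 in TPM, at 1.26, on the scale that also raised the median over all genes. Without the 4 genes with the most counts, a set chosen after the values were seen, the ratios for the rest were 1.12, 2.48 and 1.61.

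With a call defined as a Benjamini-Hochberg adjusted p under 0.05 in edgeR's quasi-likelihood test, 2 of the 26 tested histone genes were higher and 1 lower with hairpin 1, against 31.5% of all tested genes higher and 31.5% lower. With hairpin 2, 21 were higher and 0 lower, against 36.6% and 37.8% of all genes. At an unadjusted p under 0.05, 22 were higher and 0 lower in edgeR, and DESeq2 called 19 higher and 0 lower. With hairpin 3, 11 were higher and 0 lower, against 23.6% and 24.0%, with 16 and 0 at an unadjusted p under 0.05 in edgeR and 10 and 0 in DESeq2. Median log2 fold changes of the tested histone genes were 0.23, 1.73 and 0.69 with hairpins 1, 2 and 3, beside 0.01, -0.02 and 0.01 over all genes. With counts corrected for length (the length offset), 10 of 26 were higher with hairpin 1, and in a fit of only the control and hairpin 3 libraries 6 were higher with hairpin 3. The 10 of 26 lies near the 31.5% given above for all genes, which comes from the fit without this correction. Counts from other settings, here and below, lack a share over all genes unless it is printed beside them. Without control library 1 the counts were 4 higher and 2 lower with hairpin 1, 21 and 1 with hairpin 2, and 11 and 0 with hairpin 3, and without hairpin 3 library 1 the latter were also 11 and 0.

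Counted by libraries alone, all 3 hairpin 1 libraries lay above all 3 control libraries for 3 of the 26 genes and below for 1, against 35.0% and 34.2% of all tested genes. For hairpin 2 the counts were 21 above and 0 below, against 38.2% and 38.8%, and for hairpin 3 they were 13 above and 1 below, against 22.4% and 23.7%.

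A gene that passed the filter through the hairpin 2 libraries had to be higher there, so these counts do not speak for the 37 untested genes. The 9 histone genes above the filter cutoff of 0.649 CPM in the control libraries alone gave 9 higher with hairpin 2, 8 higher with hairpin 3, and 2 higher and 1 lower with hairpin 1. The mean of the 3 hairpins gave 14 of 26 higher and 1 lower, against 33.7% and 35.8% of all genes, and with the 9 knockdown libraries as 1 group 5 were higher. Hairpin 3 lay below hairpin 2 for 14 genes and above it for 0 (31.9% of all genes were lower, 33.4% higher, with 0 higher at an unadjusted p under 0.05 in edgeR and in DESeq2). Hairpin 2 lay above hairpin 1 for 17 genes and below it for 0 (28.2% and 29.4% of all genes). Hairpin 3 lay above hairpin 1 for 7 and below it for 0 (4.75% and 4.70% of all genes), and the 7 fell to 2 without any 1 of the 3 hairpin 1 libraries or without hairpin 3 library 3, and to 3 with the length offset. The lower call in the mean was H4C11. Of its 50-base words 81.2% are shared, most often with H4C12, whose own words are all shared. This call was lost when the copies were summed.

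**Figure D2:**
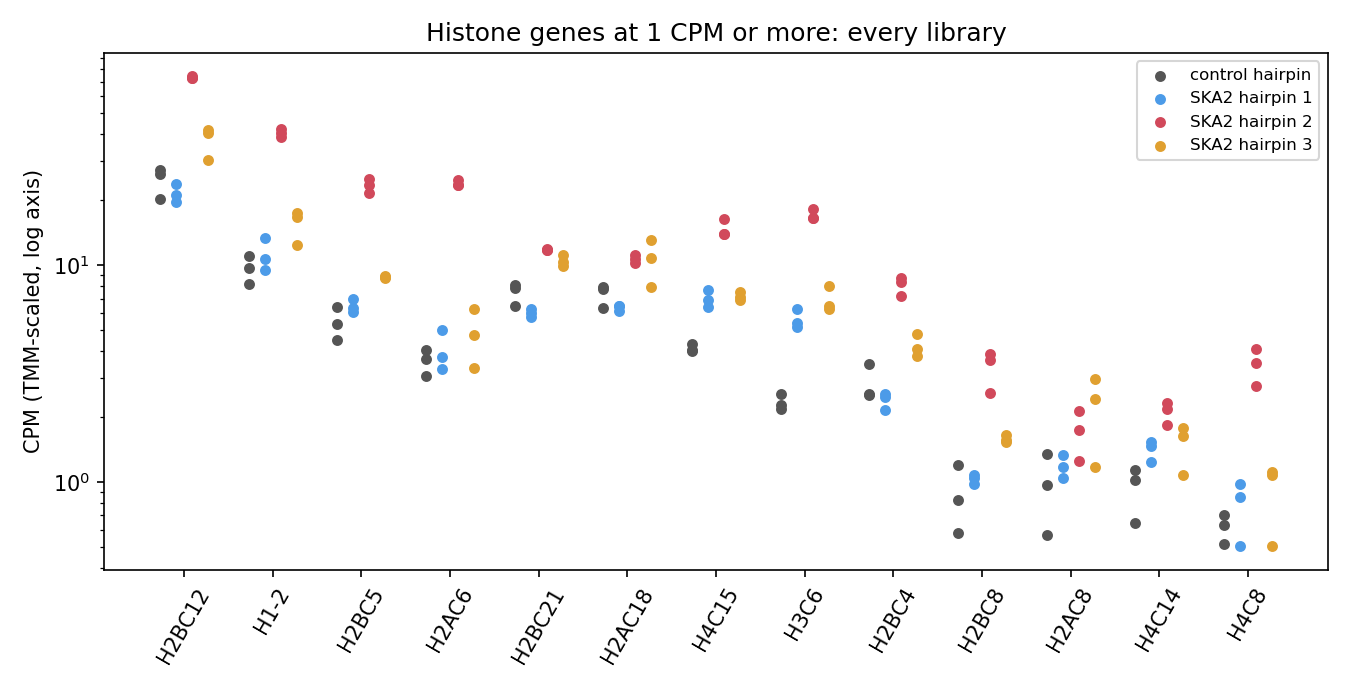
CPM in every library (log axis) for the 13 histone genes with at least 1 CPM on average, by line. For H2BC12 the 3 hairpin 2 libraries stand at 72.8 to 73.9 CPM, above the 20.1 to 27.5 CPM of the control libraries.

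H1-2 encodes a linker histone and is the only H1 gene that passed the filter. It stood at 8.17, 9.63 and 11 CPM in the control libraries, at 10.7, 13.3 and 9.45 with hairpin 1, at 42.3, 38.9 and 40.7 with hairpin 2, and at 12.4, 17.4 and 16.6 with hairpin 3. The hairpin 2 and hairpin 3 libraries all lay above the control libraries, and the hairpin 1 libraries overlapped them. H1-2 rose 4.24-fold with hairpin 2 (log2 fold change 2.08, SE 0.15, adjusted p 3.32e-07) and 1.61-fold with hairpin 3 (0.69, SE 0.16, adjusted p 0.0042). With hairpin 1 its log2 fold change was 0.22 (SE 0.16, adjusted p 0.254), and it was called higher with the length offset (0.76, adjusted p 0.000147), the length slope (0.71, adjusted p 0.00171) and on log2(TPM + 1) (0.57, adjusted p 0.00153). It lies at chr6:26055787-26056428 on the minus strand, and its effective length, computed from deposited count and FPKM, was 453 bases.

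H2AC6 encodes a core histone H2A. It stood at 4.05, 3.68 and 3.06 CPM in the control libraries, at 3.33, 3.76 and 5.01 with hairpin 1, at 23.4, 23.4 and 24.7 with hairpin 2, and at 6.24, 4.74 and 3.35 with hairpin 3. The hairpin 2 libraries stood above all others, while the hairpin 3 libraries overlapped the control. It rose 6.61-fold with hairpin 2 (2.72, SE 0.19, adjusted p 2.65e-07). Its log2 fold change was 0.41 with hairpin 3 (SE 0.22, adjusted p 0.143) and 0.17 with hairpin 1 (SE 0.22, adjusted p 0.533). Without hairpin 3 library 3 the value for hairpin 3 was 0.61, with an adjusted p of 0.023.

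The H2A gene H2AC18 stood at 6.33, 7.95 and 7.78 CPM in the control libraries, at 6.14, 6.49 and 6.47 with hairpin 1, at 11.1, 10.2 and 10.6 with hairpin 2, and at 7.87, 10.8 and 13 with hairpin 3. The hairpin 2 libraries lay above the control and the hairpin 3 libraries overlapped it. It rose with hairpin 2 (0.53, SE 0.16, adjusted p 0.00977) and with hairpin 3 (0.52, SE 0.16, adjusted p 0.0195), and the latter call was lost without control library 1 (0.42, adjusted p 0.0524) or without hairpin 3 library 3 (0.34, adjusted p 0.0769). H2AC18 also lost this call in a fit of only the control and hairpin 3 libraries (adjusted p 0.103). With hairpin 1 it was -0.21 (SE 0.17, adjusted p 0.292), and the length offset turned this to 0.38 (adjusted p 0.00806). All of its 50-base words occur also in the copy HIST2H2AA4, so its counts may stand for either gene.

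H2AC8, a further H2A gene, is paired head to head with H2BC8. It had 9, 15 and 21 counts in the control libraries, 16, 18 and 21 with hairpin 1, 26, 33 and 19 with hairpin 2, and 18, 38 and 47 with hairpin 3. The control libraries overlapped those of all 3 hairpins. It passed the test with hairpin 3 (1.18, SE 0.37, adjusted p 0.0203) and did not with hairpin 2 (0.83, SE 0.38, adjusted p 0.0684) or hairpin 1 (0.30, SE 0.41, adjusted p 0.536). With the length offset it was called with both, at 1.53 (adjusted p 0.000217) and 0.89 (adjusted p 0.0187), and on log2(TPM + 1) with hairpin 2, at 1.14 (adjusted p 0.00207). The hairpin 3 call was lost when any of 4 single libraries was left out (control 1 or 2, hairpin 3 library 2 or 3), with adjusted p between 0.0547 and 0.0759. H2AC8 also lost this call in a fit of only the control and hairpin 3 libraries (adjusted p 0.0822).

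H2B genes held the most counts. H2BC12, at chr6:27146418-27146798, held 29.2% of all histone counts. Its libraries stood at 20.1, 26.3 and 27.5 CPM in the control, at 23.6, 19.5 and 20.9 with hairpin 1, at 73.1, 73.9 and 72.8 with hairpin 2, and at 30.5, 40.7 and 41.9 with hairpin 3. Hairpin 2 and hairpin 3 libraries lay above the control, and hairpin 1 overlapped it. It rose 2.98-fold with hairpin 2 (1.57, SE 0.14, adjusted p 1.3e-06) and 1.53-fold with hairpin 3 (0.61, SE 0.14, adjusted p 0.00382). With hairpin 1 the value was -0.21 (SE 0.14, adjusted p 0.218) and it turned to 0.33 (adjusted p 0.00134) with the length offset. Without control library 1 it was called lower (-0.33, adjusted p 0.038). Of the 50-base words in its only GENCODE transcript, of 381 bases, 74.1% occur in other genes, mostly in H2BFS. RefSeq gives H2BC12 a span of 8566 bp, so this share need not hold for all of its reads.

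The H2B gene H2BC5 stood at 4.49, 5.36 and 6.38 CPM in the control libraries, at 6.99, 6.36 and 6.09 with hairpin 1, at 23.4, 25 and 21.5 with hairpin 2, and at 8.78, 8.66 and 8.91 with hairpin 3. The hairpin 2 and hairpin 3 libraries lay above the control, and 1 control library lay above 2 of those with hairpin 1. It rose 4.3-fold with hairpin 2 (2.10, SE 0.12, adjusted p 4.43e-08) and 1.62-fold with hairpin 3 (0.70, SE 0.13, adjusted p 0.000954), and was 0.26 with hairpin 1 (SE 0.13, adjusted p 0.0987). With hairpin 1 it was called higher with the length offset (0.81, adjusted p 0.000235), the length slope (0.50, adjusted p 0.0434) and on log2(TPM + 1) (0.38, adjusted p 0.0137). H2BC4, whose promoter gap is shared with H2AC6, stood at 2.53, 2.52 and 3.51 CPM in the control libraries, at 2.55, 2.14 and 2.47 with hairpin 1, at 7.18, 8.36 and 8.69 with hairpin 2, and at 4.1, 3.79 and 4.8 with hairpin 3. Hairpins 2 and 3 lay above the control, and hairpin 1 overlapped it. H2BC4 rose 2.83-fold with hairpin 2 (1.5, SE 0.16, adjusted p 5.03e-06) and 1.48-fold with hairpin 3 (0.57, SE 0.17, adjusted p 0.0152). The hairpin 3 call was lost without control library 2 (0.49, adjusted p 0.0633) or hairpin 3 library 3 (0.47, adjusted p 0.0536). H2BC4 also lost this call in a fit of only the control and hairpin 3 libraries (adjusted p 0.0735).

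H2BC8, the H2B partner of H2AC8, had 19, 9 and 13 counts in the control libraries, 15, 16 and 17 with hairpin 1, 58, 57 and 39 with hairpin 2, and 24, 26 and 24 with hairpin 3. Hairpins 2 and 3 stood above the control, and hairpin 1 overlapped it. Its log2 fold changes were 1.94 with hairpin 2 (SE 0.24, adjusted p 1.89e-05) and 0.85 with hairpin 3 (SE 0.27, adjusted p 0.0217). The hairpin 3 call was lost when control library 2 or 3, or hairpin 3 library 2, was left out (adjusted p 0.0534 to 0.0869). H2BC8 also lost this call in a fit of only the control and hairpin 3 libraries (adjusted p 0.0641).

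H2BC21 stood apart among the H2B genes, at 7.79, 6.46 and 8.1 CPM in the control libraries, 6.01, 6.29 and 5.77 with hairpin 1, 11.8, 11.7 and 11.7 with hairpin 2, and 10.3, 11.1 and 9.92 with hairpin 3. The hairpin 1 libraries all lay below the control libraries, and those of hairpins 2 and 3 lay above. It fell with hairpin 1 (-0.31, SE 0.11, adjusted p 0.0245), the only described gene called lower, and rose 1.57-fold with hairpin 2 (0.65, SE 0.10, adjusted p 0.000105) and 1.4-fold with hairpin 3 (0.48, SE 0.10, adjusted p 0.00241). The fall was lost in DESeq2 (adjusted p 0.0514), with length correction (-0.12, adjusted p 0.382) and when 4 of the libraries were left out in turn, with adjusted p from 0.0587 to 0.0994.

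H3C6 was the only described H3 gene. It stood at 2.53, 2.26 and 2.17 CPM in the control libraries, at 5.16, 6.23 and 5.39 with hairpin 1, at 16.4, 16.5 and 18.1 with hairpin 2, and at 6.5, 6.26 and 7.96 with hairpin 3. All 9 knockdown libraries stood above all control libraries. It rose 2.4-fold with hairpin 1 (1.27, SE 0.14, adjusted p 3.36e-05), 7.3-fold with hairpin 2 (2.87, SE 0.13, adjusted p 8.01e-09) and 2.97-fold with hairpin 3 (1.57, SE 0.14, adjusted p 5.39e-06). Among the 13 described genes it had the largest log2 fold change with each hairpin in this fit. With the length offset its hairpin 2 value was 2.99, below those of H2AC6 (3.41) and H4C8 (3.18).

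H4C15 encodes histone H4, as does its near-identical copy H4C14, and reads cannot always be assigned to 1 of them. H4C15 stood at 4.3, 4.07 and 4.02 CPM in the control libraries, at 7.7, 6.91 and 6.4 with hairpin 1, at 13.9, 16.2 and 13.9 with hairpin 2, and at 7.09, 7.53 and 6.89 with hairpin 3. Every knockdown library lay above every control library. It rose with hairpin 1 (0.76, SE 0.11, adjusted p 0.000249), hairpin 2 (1.83, SE 0.11, adjusted p 6.16e-08) and hairpin 3 (0.79, SE 0.11, adjusted p 0.000201).

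H4C14 had 18, 10 and 16 counts in the control libraries, 19, 22.5 and 24 with hairpin 1, 34.5, 28.5 and 33 with hairpin 2, and 25, 17 and 28 with hairpin 3. Scaled to CPM, the libraries of hairpins 1 and 2 lay above those of the control, and those of hairpin 3 overlapped them. It rose with hairpin 2 (1.15, SE 0.25, adjusted p 0.00124) and was 0.57 (adjusted p 0.0748) and 0.66 (adjusted p 0.0527) with hairpins 1 and 3. With the replicate number as a block it passed the test with hairpin 3 (0.67, adjusted p 0.0372), and with the length slope the hairpin 2 call was lost (0.89, adjusted p 0.149). Summed over both copies, log2 fold changes were 0.73, 1.73 and 0.77 with hairpins 1, 2 and 3 (SE 0.10 each, adjusted p 0.000124, 3.51e-08 and 8.8e-05), a sum chosen after the values were seen. H4C8, another H4 gene, had 10, 8 and 11 counts in the control libraries, 13, 15 and 8 with hairpin 1, 61, 55 and 42 with hairpin 2, and 17, 8 and 17 with hairpin 3. Its hairpin 2 libraries stood above all others, and hairpins 1 and 3 overlapped the control. H4C8 rose 5.55-fold with hairpin 2 (2.47, SE 0.29, adjusted p 1.47e-05), and was 0.32 and 0.53 with hairpins 1 and 3 (adjusted p 0.468 and 0.251). H4C8 reached the 1 CPM average of the described genes only through its hairpin 2 libraries, so its place among them is not independent of that rise.

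**Figure D3:**
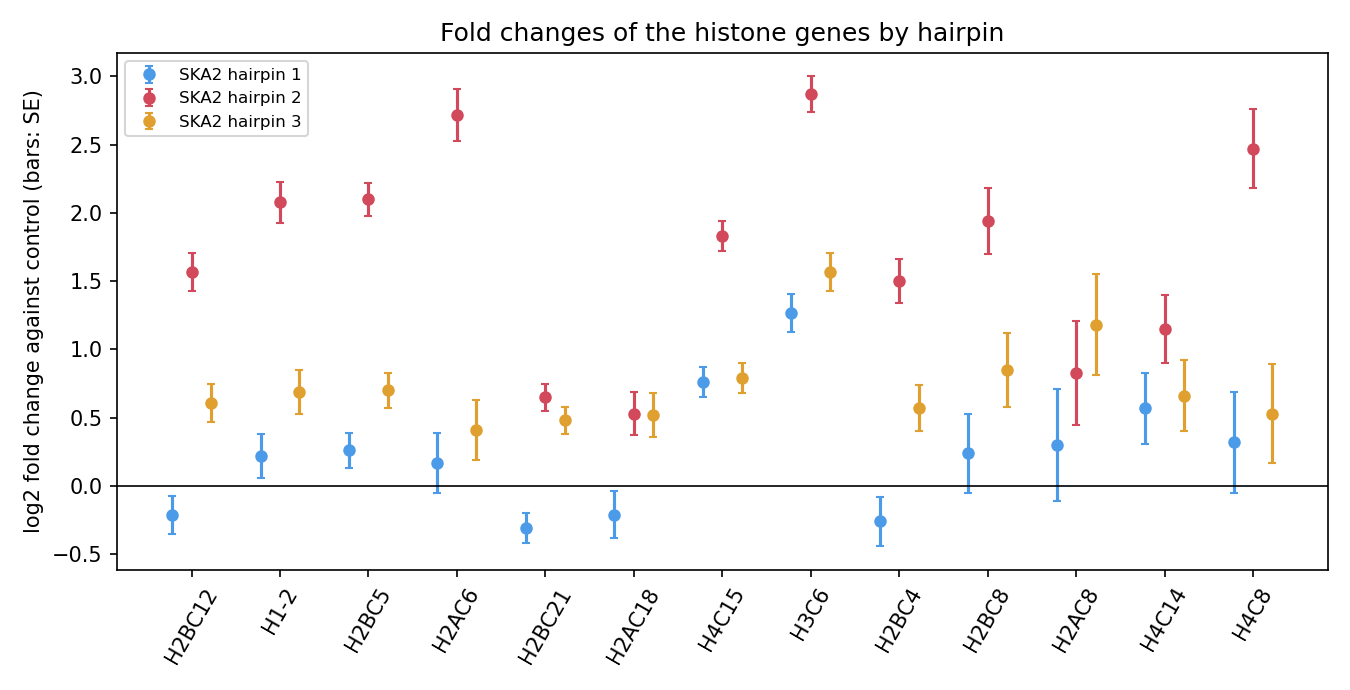
Log2 fold changes against control, with SE, of the 13 described histone genes for each hairpin. H3C6 reaches 2.87 with hairpin 2, and H2BC21 and H2AC18 rise least there, by 0.65 and 0.53.

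Below 1 CPM the other 13 tested genes rested on few counts. With hairpin 2, 9 of these were called higher: H2AC7, H2AC11, H2AC13, H2AC15, H2BC15, H3C4, H3C10, H3C14 and H4C5. The share of all genes called higher there was 36.6%. H2AC7, H2AC15, H3C10 and H4C5 had all 3 libraries over the filter only with hairpin 2, where they are high, so their calls are partly set by the filter. H3C10 (1.18 with hairpin 2, adjusted p 0.00494) was also higher with hairpin 3 (0.98, adjusted p 0.0371). H2AC13 was 1.78 with hairpin 2 (adjusted p 0.0113), H4C5 was 1.75 (adjusted p 0.00325), H2BC15 was 1.59 (adjusted p 0.0109) and H2AC11 was 1.03 (adjusted p 0.0338). H3C4 was 1.71 with hairpin 2 (SE 0.30, adjusted p 0.000308), H2AC15 was 2.55 (adjusted p 0.00134) and H2AC7 was 2.23 (adjusted p 0.000175). All 50-base words of H3C4 and 98% of those of H2AC7 occur also in other annotated genes, most often in AL031777.3, which overlaps both on the same strand. In RefSeq the span of H3C4 (chr6:26196784-26199293) contains that of H2AC7 (chr6:26198784-26199293). The calls of H3C4 and H2AC7 may therefore not be separate. H3C14 alone was 6.82 with hairpin 2 (SE 2.54, adjusted p 0.0395). H3C14 and H3C15 are near-identical, and their summed value was 1.75 with hairpin 2 (adjusted p 0.00214). Even summed, they stood at 0.38, 0.323 and 0.319 CPM in the control libraries, below the cutoff of 0.649, and at 1.54, 0.765 and 1.19 with hairpin 2. The call of H3C14 is therefore also partly set by the filter. Summed, H4C11 and H4C12 were at -0.08 in the mean of the hairpins (SE 0.22, adjusted p 0.788).

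The 37 untested genes held 3.7% of histone counts. Together they stood at 4.24, 4.74 and 3.94 CPM in the control libraries, 4.85, 6.31 and 5.53 with hairpin 2, and 6.4, 5.4 and 5.98 with hairpin 3. With hairpin 1 they stood at 4.24, 3.45 and 4.31 CPM. The libraries of hairpins 2 and 3 lay above the control and overlapped each other, and those of hairpin 1 overlapped the control. The ratio to the control was 1.29 with hairpin 2, beside 3.16 for all 63 genes. With the filter lowered to at least 5 counts in 3 libraries, 8 more of these genes were tested, and with hairpin 2 4 were higher and 2 lower, against 35.4% and 36.5% of all genes in that fit. The higher ones were H2BC7 (1.89, adjusted p 0.0102), H3C2 (1.78, adjusted p 0.0107), H2BC18 (1.49, adjusted p 0.0379) and H2BC17 (1.13, adjusted p 0.0442). The lower ones were H3C8 (-1.91, adjusted p 0.0167) and H2AC20 (-1.45, adjusted p 0.0305). H3C8 had 3, 14 and 11 counts in the control and 3, 3 and 1 with hairpin 2, and H2AC20 had 6, 8 and 9 and 1, 5 and 2. These 6 genes were named after their values were seen.

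A few histone genes with a long span in RefSeq, introns included, carried most of the counts. The 8 genes with a RefSeq span over 1000 bp held 60.2% of histone counts (H2BC12, H2BC5, H2BC21, H4C15, H3C6, H2BC4, H3C4 and H2BC18), and the other 55 held 39.8%. Summed ratios to the control were 1.04, 3.17 and 1.61 with hairpins 1, 2 and 3 for the former, and 1.06, 3.15 and 1.52 for the latter. The 1000-bp split was set after the values were seen, and it depends on the annotation. H2BC12 spans 8566 bp in RefSeq and 381 in GENCODE. In the other direction, H2AC6 spans 519 bp in RefSeq and 14972 in GENCODE, H4C8 409 and 8030, and H4C14 396 and 7109. The sums were not computed for a split on GENCODE spans. The span is not the length of a transcript, and the 3' ends used in these cells were not measured.

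**Figure D4:**
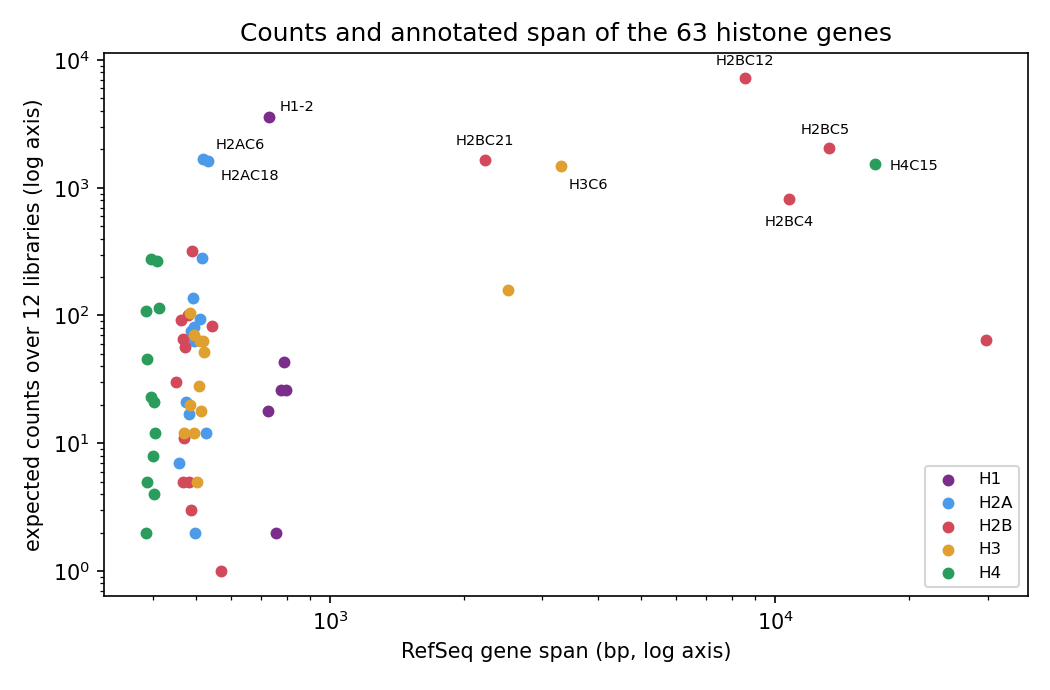
Expected counts summed over 12 libraries against RefSeq gene span (both log axes) for the 63 histone genes, coloured by family. Most genes lie below 1000 bp with few counts, and H2BC12 has the most counts, 7266.

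Genes listed here as replacement histones, which are histone genes outside the replication-dependent set, were mostly lower with hairpin 2. When in the cell cycle each of them is made, and which 3' end its mRNA carries, was not measured. Of 12 tested, 10 were lower and 0 higher with hairpin 2, 6 lower and 1 higher with hairpin 1, and 1 lower and 3 higher with hairpin 3 (median log2 fold changes -0.74, -0.36 and 0.16). The shares of all tested genes were 37.8% lower with hairpin 2, 31.5% lower with hairpin 1 and 23.6% higher with hairpin 3, and the hairpin 3 count is near its share. With hairpin 2 lower calls stayed more numerous under each scaling or length setting (7 to 10 of 12), while with hairpin 1 the median lay between -0.05 and 0.02 under the 3 settings that use length. H2AX, whose phosphorylated form marks DNA breaks, stood at 101, 130 and 147 CPM in the control libraries, 119, 107 and 109 with hairpin 1, 34.1, 30.9 and 32.6 with hairpin 2, and 100, 150 and 164 with hairpin 3. Its hairpin 2 libraries lay below all others, and it fell there by 1.95 on the log2 scale (SE 0.18, adjusted p 1.68e-06). CENPA, the histone of the centromere, fell with hairpin 2 (-1.91, SE 0.10, adjusted p 3.32e-08), as did H2AZ1 (-1.31, SE 0.12), H1-10 (-1.89, SE 0.18), H2AJ (-0.95, SE 0.18), H3-3B (-0.67, SE 0.06), H2AZ2 (-0.65, SE 0.07), H3-3A (-0.38, SE 0.09) and MACROH2A1 (-0.15, SE 0.05). H3-3A and MACROH2A1 lay above 0 with the length offset, at 0.24 and 0.18, and on log2(TPM + 1), at 0.07 and 0.17.

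The DNA replication list, of genes whose products copy DNA in S phase, fell with hairpin 2. All 20 tested were lower with hairpin 2 (37.8% of all genes were), 7 were lower and 9 higher with hairpin 1, and 6 lower and 6 higher with hairpin 3 (medians -1.09, 0.04 and -0.06). With hairpin 2 lower calls numbered 15 to 20 under each scaling or length setting, while with hairpin 1 log2(TPM + 1) gave 14 higher and 2 lower. CDC45, a component of the replicative helicase, fell by 2.22 with hairpin 2 (SE 0.09, adjusted p 2.57e-09), TYMS, which makes thymidylate, by 1.83 (SE 0.07) and PRIM1, the primase subunit, by 1.58 (SE 0.07). The direction of the hairpin 2 change was opposite for these genes and the described histone genes, and whether it arises from the same cells was not tested.

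**Figure D5:**
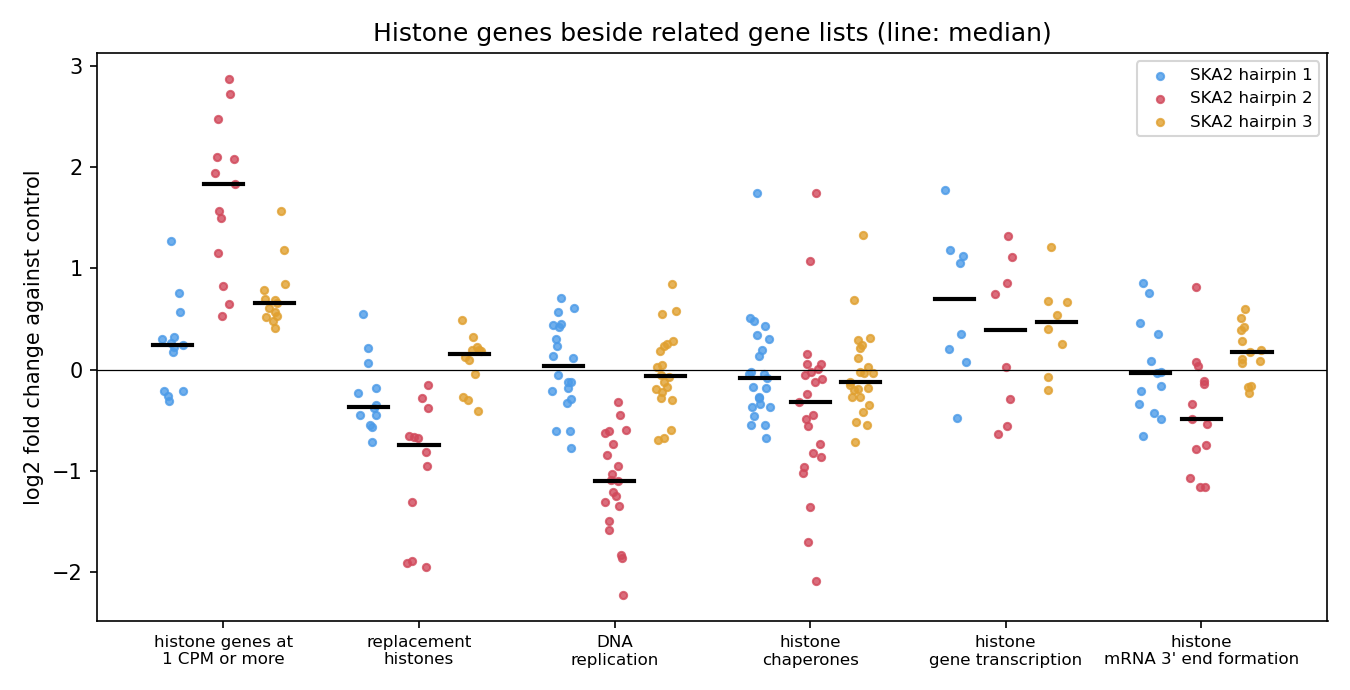
Log2 fold changes against control for the described histone genes and 5 related lists, by hairpin (points: genes, line: median). With hairpin 2 the histone median is 1.83, and the medians of replacement histones and DNA replication are -0.74 and -1.09. The described genes were chosen by their average over all libraries, hairpin 2 included. The 9 histone genes that passed the filter in the control libraries also have a median of 1.83.

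Factors that control the histone genes did not move as a single group. Of 8 genes of histone gene transcription, 6 were higher and 1 lower with hairpin 1, 4 and 2 with hairpin 2, and 5 and 0 with hairpin 3. Of all genes, 31.5%, 36.6% and 23.6% were higher with hairpins 1, 2 and 3, and with 8 genes the hairpin 2 count is close to that share. NPAT, the coactivator that drives histone genes in S phase, was higher in each (1.12, 0.86 and 0.68, adjusted p 0.00111, 0.00324 and 0.0219), and its control libraries ranged from 32.6 to 57.6 CPM. With a length slope as a covariate its hairpin 2 value turned to -0.23. CASP8AP2, which works with NPAT, was 1.05, 1.11 and 0.67, and with the length slope its hairpin 2 value was -0.12. CRAMP1, linked to H1 genes, was 0.35, 0.75 and 0.40, and its hairpin 1 value turned to -0.25 with the length offset.

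SLBP, which binds the stem-loop, rose with hairpins 1 and 3 (0.46 and 0.42, SE 0.06, adjusted p 8.16e-05 and 0.000151) and was 0.04 with hairpin 2 (adjusted p 0.527). Its libraries stood at 119, 121 and 128 CPM in the control and at 132, 123 and 123 with hairpin 2. Of the 13 genes of histone 3' end formation, 8 were lower and 1 higher with hairpin 2, 4 and 4 with hairpin 1, and 0 lower and 6 higher with hairpin 3. The hairpin 1 counts are near the shares over all genes (31.5% each way), while 37.8% of all genes were lower with hairpin 2 and 23.6% higher with hairpin 3. SNRPB, a core protein of the small nuclear RNPs, fell with hairpin 2 (-1.16, SE 0.12), and CPSF3, the endonuclease that cuts the 3' end, fell there too (-0.78, SE 0.06). Of 8 cap complex and elongation genes, 2 were lower and 1 higher with hairpin 2, below the shares of all genes (37.8% and 36.6%), with NELFB lower (-0.72) and NCBP2 higher (0.44). Of 7 decay genes, 2 were higher and 2 lower with hairpin 2 (36.6% and 37.8% of all genes were), including the exonuclease XRN1 (1.32) and the uridylyltransferase TUT7 (1.23), which were higher. XRN1 was -0.18 with the length slope. DCP2 was higher with hairpins 1 and 3 (1.31 and 1.45) and 0.11 with hairpin 2, where the length offset gave -0.72.

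Histone chaperones, which carry new histones to DNA, were mostly lower with hairpin 2, at 14 lower and 2 higher of 23, while 10 were lower and 7 higher with hairpin 1 and 9 lower and 5 higher with hairpin 3. Of all genes 37.8% were lower with hairpin 2, 31.5% were higher and 31.5% lower with hairpin 1, and 24.0% were lower with hairpin 3. MCM2 is in this list and in that of DNA replication. On log2(TPM + 1) the count was 8 lower and 10 higher with hairpin 2 and 3 lower and 13 higher with hairpin 1, on a scale that put the median over all genes at 0.33 and 0.29. DNAJC9, a histone chaperone, fell with hairpins 1, 2 and 3 by 0.67, 2.08 and 0.55. SSRP1, a subunit of the FACT complex, fell by 0.46, 1.35 and 0.27, and CHAF1B, of the chromatin assembly factor, by 0.28, 0.82 and 0.52, although on log2(TPM + 1) CHAF1B was 0.09 with hairpin 1.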

How the data were processed

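Poly(A)-selected RNA of 12 SNU638 libraries was sequenced on the BGISEQ-500, per the labels' protocols. The tools named are RSEM, HISAT, DESeq2 and Bowtie2, and the build is GRCh38.p13, per the submitters' processing notes. The sources used here give neither roles nor versions, and the protocols name random priming and no strand step. For every gene and library the authors deposited TPM, FPKM and expected count values, per the file headers. The deposited expected counts share ambiguous reads between genes, FPKM values were scaled by the authors to length and depth, and TPM values were scaled by the authors to a common total. The 15 deposited averages were not used. Expected counts were rounded and fitted in edgeR 4.0.16 (R 4.3.3) to all 12 libraries, with TMM scaling. The filterByExpr function, given the 4 groups, kept 12868 genes. Calls had a Benjamini-Hochberg adjusted p under 0.05, two-sided. SE is the absolute log2 fold change over the square root of F, and the fit had 8 residual degrees of freedom and a biological coefficient of variation of 0.111. No pair of libraries of a line agreed within sampling noise. The fit was tested on simulated data. Effective length came from the ratio of deposited count to FPKM. GENCODE v29 gave positions and RefSeq gave promoters.

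Members with at least 1 CPM on average were described one by one. A member below that level was named where it was called against the control, and of each other list up to 3 genes with the smallest adjusted p in the mean of the hairpins were named, beside SKA2, SLBP, NPAT, CASP8AP2 and the replacement histones. A gene that this rule would name is not reported here. Members and lists were chosen with earlier results of these data known. Alternatives were the median-ratio size factors, DESeq2 1.42.0, 2 other filters, limma 3.58.1 on log2(TPM + 1), the replicate block, length corrections, fits of the compared groups, 1 knockdown group, and libraries left out in turn. Deviations of same-numbered libraries from their line means correlated at 0.73, 0.17 and 0.60 between control and hairpin 3. Differently numbered ones correlated there too, at 0.39 (control 3 with hairpin 3 library 2) and 0.23 (control 2 with hairpin 3 library 3). Control library 1 was at -0.43 and -0.65 with hairpin 3 libraries 2 and 3. The numbers therefore do not settle a pairing. The labels give no shared batch. Of the other 15 same-numbered correlations 0 were over 0.1, and of all 36 differently numbered ones 7 were.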

Additional observations from a re-analysis of the deposited data

Results flagged for a closer look

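Hairpins differed from each other by edgeR's test of the contrast itself (Benjamini-Hochberg over all genes) for these described histone genes, as log2 differences with 3 libraries a line. Hairpin 2 lay above hairpin 1 in H2AC6 by 2.56, H4C8 by 2.15, H1-2 by 1.86, H2BC5 by 1.84, H2BC12 by 1.78, H2BC4 by 1.76, H2BC8 by 1.70, H3C6 by 1.60, H4C15 by 1.07, H2BC21 by 0.96 and H2AC18 by 0.74. Hairpin 3 minus hairpin 2 was -2.32 in H2AC6, -1.94 in H4C8, -1.41 in H2BC5, -1.39 in H1-2, -1.30 in H3C6, -1.10 in H2BC8, -1.03 in H4C15, -0.96 in H2BC12 and -0.93 in H2BC4. Hairpin 3 lay above hairpin 1 in H2BC12 and H2BC4 by 0.82 each, in H2BC21 by 0.79, in H2AC18 by 0.73 and in H2BC5 by 0.44. Of these last, the calls of H2BC5, H2AC18 and H2BC4 were lost with hairpin 1 library 1, 2 or 3 left out, among others. SKA2 itself did not pass the test between hairpins. No outlier test was run on lines of 3 libraries.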

How the results depend on the processing

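Of 987 values of single genes under other settings, 894 kept their direction and side of the threshold, 34 lost their call, 51 gained one and 8 reversed. Of 1092 with a library left out, 1038 kept both, 34 lost and 20 gained a call. The cause of these shifts was not tested. The reversals were, with hairpin 1, H2BC12 (0.25 in limma on log2(TPM + 1), 0.34 with the length slope, 0.33 with the length offset and 0.33 with replicate block and offset), H2BC21 (0.07 in limma) and H2AC18 (0.38 with the offset, with and without the block), and, between hairpins 3 and 2, H2AC8 (-0.95 with the slope).

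With hairpin 1 higher calls went from 2 to 8 in limma, 6 with the slope, 10 with the offset and 11 with block and offset, and lower calls from 1 to 2 with either other filter, 2 with the replicate block, and 0 in DESeq2, in limma, with the slope and with the offset. With hairpin 2 lower calls went from 0 to 2 with either other filter, and to 1 with only the compared groups, with the block and with block and offset. With hairpin 3 higher calls went from 11 to 6 with only the compared groups. For the mean, higher calls went from 14 to 22 in limma and with the offset, 9 with the slope and 5 with the 9 knockdown libraries as 1 group, and lower calls from 1 to 3 with at least 5 counts in 3 libraries and 0 in DESeq2, limma, the slope, 1 knockdown group and summed copies. Hairpin 3 against hairpin 1 gave 3 higher calls instead of 7 with only the compared groups, the offset, and block and offset, and hairpin 3 against hairpin 2 gave 1 higher call instead of 0 with either other filter. The fit of only the compared groups has no value for the mean. No share over all genes stands beside the counts of this paragraph, so they compare settings for the histone genes only. All medians of all genes stayed within 0.02 of 0 except in limma on TPM, at 0.29, 0.33 and 0.12 with hairpins 1, 2 and 3. With the replicate block, hairpin 3 against control gave 12 higher calls, and H4C14 was the only described gene whose call the block changed there. Over all lines, 5 of 12 libraries correlated best with their own number.

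With 1 library left out, higher and lower calls ranged over 2 to 4 and 0 to 2 (hairpin 1), 18 to 23 and 0 to 1 (hairpin 2), 8 to 14 and 0 to 0 (hairpin 3), 11 to 16 and 0 to 1 (mean), and higher calls over 2 to 9 for hairpin 3 against 1. Without control library 1, hairpin 1 gave 4 higher calls. Genes with under about 20 counts in the control libraries limit the precision of the low members.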
